A study of Mus musculus with 12 samples.

Results

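The set described here comprises 102 of 45281 microarray probes whose signal stood high together in 2 arrays of mouse muscle RNA, one from saline-infused and one from steroid-infused animals. Each array was divided by its median signal, and each probe by its median over the 12 arrays. A probe entered the set if this ratio was at least 2.5 in the array 20E 15d replicate 3 and at least 2 in saline 15d replicate 1, with a detection p under 0.05 in both. A probe at 2 or more in saline 5d replicate 2 was to be left out, and this removed 0 probes. These rules were met by 0.612% of the 16670 probes detected in both arrays. The members were thus chosen by their measured ratios in these arrays, and the values there are a description that was not tested.

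RNA came from a forelimb muscle, the triceps brachii, of C57BL/6J males that were 12 weeks old. Osmotic pumps under the skin delivered saline or 20-hydroxyecdysone (20E), a steroid hormone of insects that many plants also make, at 5 mg/kg/day. The infusion lasted 5 or 15 days, so that the groups were saline 5d, 20E 5d, saline 15d and 20E 15d, each with 3 arrays. Each array held pooled RNA of 3 animals, apart from 1 pool of the saline group lettered B, probably that of 15 days by the column letters, which held 2, and p-values below therefore measure the spread between pools.

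The genes of the set are best known from the liver. Hepatocytes make most of the proteins of blood plasma, among them the apolipoproteins that carry fat, the inhibitors of blood proteases and the clotting factors, and male mouse liver also makes large amounts of major urinary proteins, which bind pheromones. Hepatocytes further hold the urea cycle and the cytochrome P450 enzymes that modify drugs and steroids, and during inflammation they raise a group of plasma proteins called acute-phase proteins. Skeletal muscle is not known as a source of most of these proteins.

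According to the array's annotation, 94 of the 102 members carried the name of 1 gene and 8 carried none. The named members covered 75 genes, of which 17 had 2 or more member probes. Of the 13 detected probes of a list of liver markers, 9 were members, and they stood for 7 of the 8 detected genes: Apoa1, Apoa2, Ttr, Serpina1a, Fgg, Ahsg and Hp. Albumin, the most abundant plasma protein and a defining liver product, was represented by 1 probe that was not detected on any array, with ratios of 1.04 and 1.13 in the arrays that chose the set. Fgb, the beta chain of fibrinogen, was likewise not detected on any array, while Apoh, a plasma glycoprotein detected on 2 arrays, reached 2.21 in 20E 15d replicate 3 and 1.78 in saline 15d replicate 1. Of the 34 gene lists examined, 3 held a member. The others were a brown adipocyte list with 2 probes of Slc27a2, a fatty acid transporter that liver also uses, and a complement and acute-phase list with Hp. In bulk RNA, fewer cells of a type and less RNA per cell cannot be told apart.

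Sequence before the start of member genes was examined for short motifs that factors active in liver are known to bind. RefSeq promoters of build GRCm38.p6 were at hand for 58 of the 75 genes, and the 250 bases before the start were searched on both strands. The stretches shown are the last 120 bases before the start of Apoa2, the gene of the leading probe, of 3 Serpina1 genes, which encode near-identical antitrypsins, of the fibrinogen chain gene Fga and of Ahsg, which encodes fetuin-A. Capitals mark the letters GTTAAT, the core of sites for HNF1, and TTGCNNAA, a form of sites for C/EBP proteins, on either strand.
Apoa2 (chr1:171224934-171225053, plus strand): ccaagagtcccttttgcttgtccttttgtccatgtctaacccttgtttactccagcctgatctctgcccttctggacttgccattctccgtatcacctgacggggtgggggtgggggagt
Serpina1a (chr12:103863620-103863739, minus strand): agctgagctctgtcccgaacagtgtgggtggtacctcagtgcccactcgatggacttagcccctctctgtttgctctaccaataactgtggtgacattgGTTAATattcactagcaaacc
Serpina1b (chr12:103738190-103738309, minus strand): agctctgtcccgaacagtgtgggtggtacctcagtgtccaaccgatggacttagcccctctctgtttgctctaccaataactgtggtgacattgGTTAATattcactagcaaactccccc
Serpina1e (chr12:103956898-103957017, minus strand): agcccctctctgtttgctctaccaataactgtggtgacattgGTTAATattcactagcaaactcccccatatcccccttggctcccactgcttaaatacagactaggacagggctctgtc
Fga (chr3:83026033-83026152, plus strand): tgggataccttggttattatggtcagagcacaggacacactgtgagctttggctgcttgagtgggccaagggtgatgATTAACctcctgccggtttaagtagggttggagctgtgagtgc
Ahsg (chr16:22891895-22892014, plus strand): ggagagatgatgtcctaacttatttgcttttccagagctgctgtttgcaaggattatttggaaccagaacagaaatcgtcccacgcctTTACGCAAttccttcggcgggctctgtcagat
The letters GTTAAT occurred in 12 of the 58 member promoters (20.7%) and in 6.52% of all 27025 promoters. Of these 12, 5 belonged to the Serpina1 genes, whose promoters shared an unbroken run of 55 bases that holds the motif, and outside Serpina1 the share was 7 of 53 (13.2%). The letters TTGCNNAA occurred in 18 member promoters (31%) and in 9.55% of all. The core CAAAGTC of HNF4 sites was present in 6 member promoters (10.3% against 3.8% of all), and the TATA box letters TATAAA in 13 (22.4% against 13%). The stretch of Apoa2 held neither GTTAAT nor TTGCNNAA. Each match is a description of letters within this window.

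Some member genes were neighbours on the chromosomes. In the RefSeq gene order of GRCm38.p6, 32 of the 75 genes fell into 12 groups with at most 3 protein-coding genes between neighbours, and the same count was not made for other genes. The largest was the row of Serpina1a to Serpina1e with 5 genes, followed by 4 Cyp2c genes. Other groups were Itih1, Itih3 and Itih4, which encode heavy chains of a plasma protease inhibitor, Apoc1, Apoc4 and Apoe, Apoa1 with Apoc3, Fga with Fgg, and Ahsg with Kng1. Genes within the Mup, Serpina1, Cyp2c and Cyp2d families are similar in sequence to differing degrees. Signal may therefore be shared among them, and the assignment of a probe to 1 copy is uncertain.

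The median ratio of the members was 4.43 in 20E 15d replicate 3 (2.57 to 26.9) and 3.86 in saline 15d replicate 1 (2.02 to 22.8). At 10 or more in both arrays stood 19 members. The ratios were taken on signals that still contained background, and so understate the rise of dim probes. Outside these 2 arrays and the next 2 described below, member ratios lay between 0.401 and 1.83. Of the 102 members, 31 were detected on all 12 arrays and 15 on 3 or fewer.

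Lipoprotein proteins held the probe with the highest ratios in both arrays, and gave 12 probes of 10 genes with a median ratio of 9.94 in 20E 15d replicate 3 and 7.47 in saline 15d replicate 1. Apoa2, a structural protein of high-density lipoprotein, had ratios of 0.804, 0.979 and 1.02 in saline 5d replicates 1 to 3 and 1.83, 0.748 and 0.453 in 20E 5d. It had 22.8, 3.7 and 0.807 in saline 15d and 0.935, 1.29 and 26.9 in 20E 15d. Thus 2 arrays stood far above the rest, saline 15d replicate 2 was next, and the low values of each 15-day group resembled those of 5 days. Apoa1, the main protein of high-density lipoprotein, reached 23.4 in 20E 15d replicate 3, 16 in saline 15d replicate 1 and 3.27 in saline 15d replicate 2. Apoc3, an inhibitor of lipoprotein lipase, reached 14.7, 11.7 and 2.31 in the same arrays. Apob, the large protein of very-low-density particles, was dim and detected only in both arrays that chose it, at 3.51 and 2.26.

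Major urinary proteins gave 7 probes of 5 genes, with median ratios of 13.5 in 20E 15d replicate 3 and 12.5 in saline 15d replicate 1. The brightest Mup2 probe had 0.626, 0.843 and 1.26 in saline 5d, 1.88, 0.775 and 0.498 in 20E 5d, 17.2, 5.49 and 1.06 in saline 15d and 0.937, 0.848 and 19.1 in 20E 15d. Its value of 5.49 in saline 15d replicate 2 was the highest of any member in that array, followed by 4.14 for both Mup3 and an unnamed probe (ILMN_2875730). Mup6 stood at 13.5 in 20E 15d replicate 3 and 13.3 in saline 15d replicate 1. Mup20, which encodes the pheromone darcin, had lower ratios, at 3.07 and 2.6, and Mup21 had 3.19 and 3. Their probes were dim, detected on 3 and 7 arrays, so ratios on signals with background understate their rise.

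Plasma carriers and hormones gave 10 probes of 8 genes. Ttr, which carries thyroid hormone and retinol-binding protein, had 0.962, 0.878 and 1.09 in saline 5d, 2.09, 0.789 and 0.504 in 20E 5d, 16.2, 3.09 and 0.832 in saline 15d and 0.906, 1.04 and 20.1 in 20E 15d. Ambp, the precursor of alpha-1-microglobulin, reached 13.3 in 20E 15d replicate 3 and 11.5 in saline 15d replicate 1, and Hamp, the iron hormone hepcidin, 13.6 and 9.88. That the same pair of arrays stood out here as for the lipoprotein proteins was fixed by the rule that chose the members. Trf, transferrin, which other tissues also make, was raised less, at 4.42 and 5.14.

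Protease inhibitors gave 12 probes of 9 genes. A Serpina1b probe (ILMN_2659680), for antitrypsin, had 0.82, 1.03 and 1.04 in saline 5d, 1.85, 0.772 and 0.529 in 20E 5d, 16, 3.41 and 0.966 in saline 15d and 0.807, 0.914 and 19.3 in 20E 15d. Serpina1d reached 18.1 and Serpina1c 14.9 in 20E 15d replicate 3, with 14.6 and 13.1 in saline 15d replicate 1. The Serpina1 genes held 7 of the 12 probes of this group, so they are not separate observations. Clotting, complement and pentraxin genes added 11 probes of 9 genes, led by Kng1, the precursor of bradykinin, at 8.91 and 9.17 in 20E 15d replicate 3 and saline 15d replicate 1.

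Enzymes made up a large share. Drug and xenobiotic enzymes gave 18 probes of 14 genes, with medians of 3.68 in 20E 15d replicate 3 and 2.7 in saline 15d replicate 1, led by the glutathione transferase Gsta3 at 9 and 8.05. Amino acid, urea and purine enzymes gave 14 probes of 13 genes. Mat1a, which makes S-adenosylmethionine in liver, stood at 10.9 and 11, and Arg1, the last enzyme of the urea cycle, at 7.35 and 6.79. Cps1 and Ass1, other enzymes of that cycle, stood at 4.81 and 4.56 and at 5.16 and 4.17. Transport, receptor and lipid enzyme genes gave 10 probes of 7 genes, among them Slco1b2, a hepatic uptake transporter, at 5.53 and 4.67. Slc27a2 stood at 5.45 and 3.98 on one probe and 3.19 and 2.44 on the other. Cox7a1 and Cox8b, subunits of cytochrome c oxidase in the same brown adipocyte list, were not members.

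The thresholds divide a continuous range. Just inside them stood a probe without a gene (ILMN_1227348) at 3.92 in 20E 15d replicate 3 and 2.02 in saline 15d replicate 1, Glyat, a glycine-conjugating enzyme, at 2.69 and 2.03, and clotting factor F10 at 2.57 and 2.09. Just outside stood another Serpina1a probe at 2.49 and 2.38, Cyp2d26 at 2.49 and 2.06, and clotting factor F13b at 2.57 and 1.96. The member genes had 43 other probes, of which 21 were not detected in either array, 7 were at 2 or more in both, and 15 were detected but under 2 in at least 1 array. Of the 106 probes past the threshold in 20E 15d replicate 3, 96.2% were members, as were 76.1% of the 134 in saline 15d replicate 1.

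Members were also raised in arrays that the rule did not use. In saline 15d replicate 2, 26 members (25.5%) were at 2 or more, against 0.153% of all probes detected on that array. In 20E 5d replicate 1 there were 5 (4.9%), against 0.452% of all. No other array had a member at 2 or more. All detected probes reached 2 in 0.786% of cases in 20E 5d replicate 3, 1.61% in saline 5d replicate 2, 0.00567% in saline 5d replicate 3, 0.0117% in saline 15d replicate 3, 0.00568% in 20E 15d replicate 2 and 0% in the other 3. By construction all 102 members did in the arrays that chose them, where 0.81% (20E 15d replicate 3) and 0.754% (saline 15d replicate 1) of all detected probes did. The median ratio of the members was 1.43 in saline 15d replicate 2, 1.19 in 20E 5d replicate 1 and 0.884 to 0.988 in the other 8 arrays. For 90 of the 102 members saline 15d replicate 2 held the third highest level of all 12 arrays. The array 20E 5d replicate 1 held the fourth highest level for 63 and the third highest for 10. In 20E 5d replicate 3 the members were low, with 95 of 102 below their median, and 35 were detected there, against 56 to 62 in the 7 arrays without raised members other than this one. The raised arrays, 20E 15d replicate 3, saline 15d replicates 1 and 2 and 20E 5d replicate 1, carried the running numbers 11, 6, 9 and 1 in the deposited columns. They included both infusions and both durations.

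The excess in saline 15d replicate 2 bore a rather even relation to that in saline 15d replicate 1. The excess is here the normalized signal of a probe minus its median over the 8 arrays without raised members. In saline 15d replicate 2 it amounted to a median of 16.1% of the excess in saline 15d replicate 1 over the 102 members, with quartiles of 13.4% and 18.3% and a full range of 4.22% to 34.1%. Apoa2 stood at 12.7%, Fgl1 at 16.2% and the brightest Mup2 probe at 27.6%. The 7 probes for major urinary proteins lay at the upper end, at 18.3% to 34.1% with a median of 26.7%. The 11 cytochrome P450 probes had a median of 12.2%, from 4.93% to 22.5%. The lowest of these, a Cyp2a5 probe (ILMN_1244847), was detected in only 1 of the 3 saline 15d pools, while the bright Cyp2e1 stood at 17%. The P450 median thus rests partly on probes near the floor, and nothing is read from it. The saline 15d pools therefore ran from high to intermediate to low, with replicate 3 at a median ratio of 0.973.

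In 20E 5d replicate 1 the pattern among members was different. The median excess was 4.56% of that in saline 15d replicate 1, with quartiles of 3.18% and 6.35%, but several members stood far above it. Hp, haptoglobin, which binds free haemoglobin and is made by fat cells as well as liver, reached 58.9%, Cyp2e1, an ethanol-oxidizing P450, 47.4% and Fah, an enzyme of tyrosine breakdown, 46.5%. At 20% to 26.9% followed both Ugt1a10 probes, Gsta3, Cyp2f2, an unnamed probe (ILMN_1227348) and Acaa1b. The ratios of Hp, Cyp2e1 and Gsta3 in this array were 3.63, 3.36 and 2.91, followed by 2.18 for Apoc1 and 2.09 for Ttr, and these 5 were all the members at 2 or more there. The values of Hp are those of its member probe. Hp probes outside the set (ILMN_2668509 and ILMN_2668510) both had 1.89 in this array, against 3.46 and 4.1 in saline 15d replicate 1, so they rose less here. Of the adipocyte list, 11 of 37 detected probes were at 2 or more in this array, against 2 each in 20E 15d replicate 3 and saline 15d replicate 1 and 0 in the other 9. In both of those arrays the 2 were probes of Orm1 and Rbp4. The summed level of that list was 67983 in this array and 52685 to 61243 in the other 11. The adipocyte hormone gene Adipoq, its defining marker, was detected on all 12 arrays. The Adipoq ratio was 6.21 in this array, 0.812 in 20E 15d replicate 3 and 1.51 in saline 15d replicate 1. The part of adipocyte genes in the levels of these members was not tested.

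Lists of other cell types were set beside the members. At 2 times their median or more stood 12 of 13 liver list probes in each of the arrays that chose the set, though not the same 12. There were 5 in saline 15d replicate 2, 2 in 20E 5d replicate 1 and 0 in the other 8. Of the 13 probes, 9 are members and pass by construction in the arrays that chose the set. The sums that follow include these members, so the sums in those arrays are raised by construction too. The summed level of the liver list was 30129 in 20E 15d replicate 3, 26573 in saline 15d replicate 1, 4476 in saline 15d replicate 2 and 2896 in 20E 5d replicate 1, and it was 427 to 1221 in the other 8 arrays. The fast-twitch fibre list, which marks the main fibres of this muscle, had 0 of 27 probes at 2 or more in any array, and its summed level ran from 842465 to 891904 in all 12. The slow-twitch fibre list had a summed level of 34656 in saline 15d replicate 1 and 45319 in 20E 15d replicate 3, against 21248 in saline 5d replicate 3 and 43015 to 52839 in the other 9. The erythroid list was highest in saline 15d replicate 1, at 238378, against 134975 to 210253 in the other 11. The part of these lists in the members' levels was not tested. The list of T and natural killer cells had 22 of 32 probes at 2 or more in saline 5d replicate 2 and 13 in 20E 5d replicate 3, and 0 in the arrays that chose the members. A set built with the thresholds of this one, but on saline 5d replicate 2 and 20E 5d replicate 3, had 135 probes. Its median ratio was 0.957 in 20E 15d replicate 3 and 0.984 in saline 15d replicate 1. Apoe, a lipoprotein protein that macrophages also make, was the member highest in saline 5d replicate 2, at 1.83, and in 20E 5d replicate 3, at 1.29. The macrophage list had 6 and 3 of 26 probes at 2 or more in those arrays, and its part in the level of Apoe was not tested.

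The arrays that chose the set differed in their balance of members. On the normalized log2 scale the members lay a median of 0.29 lower in saline 15d replicate 1 than in 20E 15d replicate 3, with differences of -1.37 to 1.58 (saline minus 20E). At least 0.25 lower in the saline array were 61 members (59.8%), against 13.7% of the 16670 probes detected in both arrays. At least 0.25 higher there were 11 members (10.8%), against 14.2%. The higher threshold in the 20E array favours members that are lower in the saline array, so these shares are partly fixed by the choice and nothing is read from them. Each side is 1 array, so this is a comparison of 2 pools and not of the infusions.

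All of those 11 members belonged to 8 genes of plasma proteins. Fgl1, a fibrinogen-like protein, stood at 9.77 in saline 15d replicate 1 and 8.19 in 20E 15d replicate 3, a difference of 1.58. Its ratios were 1.08, 1.02 and 0.985 in saline 5d, 1.24, 0.939 and 0.973 in 20E 5d, 6.89, 1.9 and 0.972 in saline 15d and 0.982, 0.939 and 2.79 in 20E 15d. The order of the 2 highest arrays was thus the reverse of that for Apoa2. Hpx, hemopexin, which binds haem, was higher in the saline array by 0.92 and 0.75 on its 2 probes and the fibrinogen chain gene Fgg by 0.88. The others were Fga, Itih3, Itih4, Hp and Trf.

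Members known as acute-phase proteins, a class assigned after these values were seen, gave 12 probes of 9 genes. Their median difference was 0.44, against -0.31 for the other 90 members, and 10 of the 12 were at least 0.25 higher in the saline array. The exceptions were Hamp at -0.47 and Crp, a weak acute-phase protein in mice, at -0.05. Probes outside the set that passed the threshold in saline 15d replicate 1 but not in 20E 15d replicate 3 included Saa1, serum amyloid A, a major acute-phase protein of the mouse. A probe of it (ILMN_2768154) had ratios of 12.3 and 1.59 in these arrays, while a second Saa1 probe had 1.19 and 0.947. Orm1, orosomucoid, had 4.36 and 2.27. Both were chosen after their values were seen. Of the 18 detected probes of the complement and acute-phase list, 6 were at 2 or more in saline 15d replicate 1. In 20E 15d replicate 3 and in 20E 5d replicate 1 there were 3 each. Other probes of the list did not favour the saline array. Cfb had 1.33 in saline 15d replicate 1 and 1.49 in 20E 15d replicate 3, and a Cp probe (ILMN_3083163) had 1.42 and 1.47.

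Opposite to these, all 11 probes of the 9 cytochrome P450 genes were lower in the saline array, by a median of 0.65 (log2 difference -0.65). The 90 members outside the acute-phase class had a median of -0.31. The higher threshold in the 20E array favours this direction, so the P450 count is a description and nothing is read from it. Cyp2d9, a steroid hydroxylase of male mouse liver, had a difference of -0.93 and Cyp2d10 of -0.91. The lowest difference of any named member was -1.24 for Acaa1b, a peroxisomal thiolase, at 8.41 in the saline and 9.66 in the 20E array. Transport, receptor and lipid enzyme genes had a median of -0.47 and major urinary proteins of -0.07.

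The intermediate pool, saline 15d replicate 2, could be set beside both. Relative to saline 15d replicate 1 its excess had a median of 14.8% for the 12 acute-phase members and 16.2% for the other 90. Relative to 20E 15d replicate 3 the medians were 21.6% and 12.5%. Fgl1 stood at 16.2% of one and 53.2% of the other. The balance between acute-phase and other members in this array was nearer to that of the saline array, as a description of single pools. The class was assigned after the values of these arrays were seen, so the contrast is partly fixed by that choice and lends the split no support.

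Members varied together in the arrays that the rule did not use. The median Pearson correlation between pairs of members, on log2 ratios over these 9 arrays, was 0.83. Without 20E 5d replicate 1 and saline 15d replicate 2, a choice made after seeing the data, it was 0.27 over 7 arrays. For the 31 members detected on all 12 arrays the values were 0.86 and 0.20. The correlation is a description across few arrays that share a normalization, and it rests on those 2 arrays.

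None of the study's comparisons called a member. Of the 102 members, 98 passed the filter of detection on 3 or more arrays, and the 4 others were detected only in both arrays that chose them. After 5 days, 0 of 98 members were called between 20E and saline at an adjusted p under 0.05 (limma), against 0% of 19704 probes. With an unadjusted p under 0.05 there were 0 members in either direction, against 1.89% of all probes higher and 1.58% lower. The median log2 change was 0.07, from -0.56 to 0.91, with a median standard error of 1.04, against 0.14 over all probes tested. Apart from the leave-out by saline 5d replicate 2 and the median over 12 arrays, the arrays of 5 days took no part in the choice of members. The standard errors, however, draw on the spread in all 12 arrays, including both arrays that chose the members, and so are widened by that choice. Without both arrays the median standard error was 0.36, and 0 members were called or had an unadjusted p under 0.05 (limma). The 0 calls are thus partly set by the choice, and nothing is read from them.

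At 5 days Cyp2e1 had the smallest p among members that were higher with 20E. Its log2 level was 8.21, 8.90 and 8.48 in the saline pools and 10.62, 8.98 and 8.71 in the 20E pools, so the groups overlapped and 1 pool stood apart. The change was 0.91 (SE 0.95, limma adjusted p = 0.9999). Hp had 7.53, 8.29 and 7.42 against 9.88, 7.98 and 7.63, a change of 0.75 (SE 0.86, limma adjusted p = 0.9999), with the same pool on top. Without that pool, 20E 5d replicate 1, the changes were 0.31 for Cyp2e1 and 0.06 for Hp. Of members that were lower with 20E, Apoe had a change of -0.23 (SE 0.59, limma adjusted p = 0.9999) and Apoa2 of -0.56 (SE 1.56, limma adjusted p = 0.9999). Apoa2 had 7.03, 7.39 and 7.58 in saline and 8.50, 6.88 and 4.93 in 20E, which enclosed the saline values. Without 20E 5d replicate 3 its change was 0.36.

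After 15 days, 0 of 98 members were called between 20E and saline, against 0% of 19704 probes, and the lowest adjusted p of a member was 0.9999 (limma). The median change was -0.42, from -1.32 to 0.17, where 89 members were lower and 9 higher. At an unadjusted p under 0.05 there were 0 members, against 2.44% of all probes higher and 1.72% lower. One array of each side had chosen the members, so this is a description. Saline 15d replicate 2, which the rule did not use, was above all but those arrays for most members. The difference of the 20E effect between 15 and 5 days was called for 0 of 98 members (0% of 19704, lowest adjusted p 0.9999), with 0 members at an unadjusted p under 0.05 against 1.82% of all probes higher and 1.55% lower. Leaving out 20E 15d replicate 3 moved the median change after 15 days to -1.70, and leaving out saline 15d replicate 1 moved it to 0.56, so single arrays set its size and sign, while 0 members were called in either fit.

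Between durations, both groups of 15 days contained an array that chose the members, and the comparison is again a description. In saline the median log2 change from 5 to 15 days was 1.79, with all 98 higher, and in 20E it was 1.24, with 97 higher. The calls were 0 of 98 in both, against 0% of 19704 probes each, with lowest adjusted p-values of 0.6273 and 0.6599 (limma). In saline 2 members had an unadjusted p under 0.05, both higher, against 4.04% of all probes higher and 3.28% lower. In 20E 0 members had, against 4.69% and 3.4%. One was Urah, an enzyme of urate breakdown, at 5.09, 5.13 and 5.15 after 5 days and 8.34, 6.61 and 5.81 after 15 days, a change of 1.80 (SE 0.77, limma adjusted p = 0.6672). The groups did not overlap, and saline 15d replicate 1 was the highest. The other was Mup21 (limma adjusted p = 0.6273), detected in 1 of 3 pools at 5 days and in 3 of 3 at 15 days. Both are named because no other member reached that p, and were chosen after their values were seen. Without the 4 arrays in which members were raised, an alternative added after seeing the data, the median changes were 0.09 in saline, with 1 pool left at 15 days, and 0.23 in 20E, and 0 members were called.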

How the data were processed

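Illumina MouseWG-6 v2.0 BeadChips measured pooled triceps RNA in 12 arrays. BeadStudio 3.1.3 and limma appear in the submitters' processing notes, with no role stated. Per the file headers, the deposited signal intensities are not normalized. The lowest per array was 71.6 to 90.8, so background is included. A deposited detection p-value accompanies it, per the file headers. The authors' deposited log2 values served as an alternative. They have a median of 2.91 and a floor of -1 that holds 33.8% to 36.4% of probes, and the steps behind them are not given in the sources used here. The column codes give infusion and replicate but no duration, which was matched through the log2 table (rank correlation at least 0.976 with the assigned sample, at most 0.899 with any other).

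The ratios that chose the set came from the plain signals. Normalized levels were made with neqc (limma 3.58.1, R 4.3.3: normexp background from detection p-values, offset 16, quantile normalization, log2). Probes detected (p under 0.05) on at least 3 arrays, 19704 in all, entered 1 limma model with a mean per group and 8 residual degrees of freedom, with two-sided contrasts and Benjamini-Hochberg adjustment over all of them. The model was tested on simulated data in which the spread of each probe was capped below that of the members. That test therefore does not show whether changes in these members could be called. The number of arrays limits the precision. Replicate numbers did not pair the pools: deviations of same-numbered pools correlated at 0.138, -0.512 and -0.48 after 5 days and at -0.454, -0.0451 and -0.557 after 15 days. Probe names came from GEO's platform annotation (34885 probes with 1 gene, 18 with several, 10378 with none) and were updated by gene identifier through RefSeq. Python 3.11.15 was used for the ratios.

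The members and lists were chosen with earlier results of these data known, and the role groups, the motifs and the acute-phase class after the members' values were seen. Genes were named by rule: the 15 members with the highest lower ratio, up to 4 from each list with 2 or more members and up to 2 of its brightest non-members, the 3 nearest on each side of the thresholds, the 3 highest in an unused array with at least 20% of members raised, and up to 2 in each direction with the smallest p after 5 days. Other genes illustrate their role group and were chosen after their values were seen.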

Additional observations from a re-analysis of the deposited data

How the results depend on the processing

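Across 80 alternatives to the 4 counts of called members, every count was 0. These covered the authors' log2 values, median scaling, no filter on dim probes, trend and robust variances, both blocks, each array left out in turn (0 to 0), the fit without the arrays that chose the set and, added after seeing the data, the fit without the 4 raised arrays. With the replicate number as a block, although it does not pair the pools, 0 members were called in each comparison. Over all probes tested, at most 6 were called in any of these alternatives, so counts of 0 are not particular to the members. Left-out arrays moved the median change between -0.23 and 0.31 for 20E after 5 days, -1.70 and 0.56 after 15 days, 0.83 and 2.61 for duration in saline, and -0.04 and 1.90 in 20E. Unadjusted p-values under 0.05 for duration in saline rose from 2 to 72 members without 20E 15d replicate 3 and to 73 without saline 15d replicate 3; the former is no array of that comparison and enters by the shared estimate of spread. For 20E after 15 days they rose from 0 to 36 without 20E 15d replicate 3. Without both arrays the rule used they were 27 for duration in saline and 14 for 20E after 15 days, and without the 4 raised arrays 20 for 20E after 5 days and 21 for duration in 20E, where the full fits gave 0 apart from the 2 for duration in saline. The matching counts over all probes were not made for these fits. Leaving out 20E 15d replicate 3, or both arrays that chose the members, narrows the members' standard errors by construction. Nothing is therefore read from these counts. Left-out arrays gave changes after 5 days of -0.48 to 0.19 for Apoe, the highest without saline 5d replicate 2, and of -1.43 to 0.36 for Apoa2, the highest without 20E 5d replicate 3.

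Subtracting background enlarges the ratios by construction. With background-corrected signals 238 probes met the rule, 101 of them members, and with the authors' log2 values 306 did, 95 of them members. A ratio of 4 in both arrays left 42. Leaving 1 other array out of the median gave 101 to 104. The members at 2 or more in an unused array were 29, against 70 with background-corrected signals and 95 with the authors' log2 values. In saline 15d replicate 2 these were 26, 61 and 90, and in 20E 5d replicate 1 they were 5, 39 and 49. The median pairwise correlation of 0.83 was 0.27 without 20E 5d replicate 1 and saline 15d replicate 2. The median differences of acute-phase and other members kept their opposite signs with median scaling and with the authors' log2 values, both added after seeing the data. These use the same 2 arrays, and the class was assigned after their values were seen. The repeat therefore bears on the scaling only and lends the split no support. Each raised pool is a single array, so no replicate bears on its differences.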

Other observations

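Among probes that passed the threshold in saline 15d replicate 1 alone, 3 that are known from male reproductive glands stood beside the plasma proteins, and they were chosen after their values were seen. Svs4, a seminal vesicle secretory protein, had ratios of 5.01 in saline 15d replicate 1, 1.29 in 20E 15d replicate 3 and 1.3 in saline 15d replicate 2. Svs5, of the same family, had 2.82, 1.17 and 0.926, and Pate4, a protein of seminal fluid, had 2.12, 1.02 and 1.21. Liver is not known to make these proteins. No replicate bears on them, since each value is that of a single pool.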
